A study of Mus musculus with 40 samples.

Results

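The cyclins, the cyclin-dependent kinases (CDKs), the E2F transcription factors, the Rb family and the MuvB proteins form the engine of the cell cycle. The members were the genes of the deposited table named Ccn with A, B, D, E or T and a digit, Cdk with a number or E2f with a digit, together with Rb1, Rbl1, Rbl2, Lin9, Lin37, Lin52 and Lin54. They came to 45 of 18024 genes, all protein coding. By role there were 10 A, B, D and E cyclins, 2 T cyclins, 4 cell cycle CDKs, 6 transcriptional CDKs, 8 other CDKs, 3 activator E2Fs, 5 repressor E2Fs, 3 Rb family members and 4 MuvB core subunits.

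RNA was sequenced from whole pancreas, kidney, ovary, heart and small intestine taken 24 hours after p53 activation from 60-day-old mice of the strain C57BL/6j. Control mice, called Tg, had the genotype Mdm2+/- Cag-CreERTg and kept 1 Mdm2 allele. Mice that lost Mdm2, called FMTg, had the genotype Mdm2FM/- Cag-CreERTg. Both genotypes therefore carried an Mdm2 null allele and the Cre transgene, whose Cag promoter is active in most cell types, so every comparison below is between Mdm2 loss and a single working allele. Each tissue had 3 Tg and 5 FMTg libraries, and the 40 libraries came from 13 mice, of which the same 3 Tg mice gave all Tg libraries.

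Mdm2 is the ubiquitin ligase that keeps p53 low. When p53 is active it induces Cdkn1a, whose protein p21 inhibits cyclin-CDK complexes. Rb family proteins then stay unphosphorylated and hold E2F factors on their target genes, and p107 (Rbl1) or p130 (Rbl2) joins E2f4 and the MuvB core into the DREAM complex, which represses genes of S phase and mitosis. D cyclins with Cdk4 or Cdk6 start the phosphorylation of Rb, E and A cyclins with Cdk2 carry it into S phase, and A and B cyclins with Cdk1 drive mitosis.

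DREAM binds its targets through the CHR element, TTTGAA, and through E2F motifs. Promoters are shown for the 4 members with the widest range of level among the tissues of Tg mice that had an entry in the RefSeq promoter table (GRCm38.p6), each from 250 bases before to 50 bases after the start, 5′ to 3′ on the strand of the gene. Capitals mark the CHR letters and the E2F motifs, read on both strands. The first E2F motif searched was TTCCCGC. The second form of the motif was TTCGCGC. The third form of the motif was TTGGCGC. The last form of the motif was TTGCCGC.
E2f8, chr7:48881547-48881846, minus strand: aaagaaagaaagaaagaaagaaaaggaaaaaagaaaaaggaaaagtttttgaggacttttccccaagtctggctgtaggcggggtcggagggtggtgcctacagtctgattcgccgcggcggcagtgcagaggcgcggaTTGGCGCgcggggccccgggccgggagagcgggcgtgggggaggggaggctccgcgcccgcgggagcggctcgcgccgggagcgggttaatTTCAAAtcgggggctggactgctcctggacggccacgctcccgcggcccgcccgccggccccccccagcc
Ccnb1, chr13:100786437-100786736, minus strand: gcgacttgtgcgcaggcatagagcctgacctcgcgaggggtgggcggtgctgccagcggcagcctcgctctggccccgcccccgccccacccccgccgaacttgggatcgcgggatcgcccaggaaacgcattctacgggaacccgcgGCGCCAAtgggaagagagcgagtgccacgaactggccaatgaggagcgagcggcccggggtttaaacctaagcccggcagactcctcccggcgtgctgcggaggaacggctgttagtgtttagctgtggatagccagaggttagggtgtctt
Ccnb2, chr9:70421505-70421804, minus strand: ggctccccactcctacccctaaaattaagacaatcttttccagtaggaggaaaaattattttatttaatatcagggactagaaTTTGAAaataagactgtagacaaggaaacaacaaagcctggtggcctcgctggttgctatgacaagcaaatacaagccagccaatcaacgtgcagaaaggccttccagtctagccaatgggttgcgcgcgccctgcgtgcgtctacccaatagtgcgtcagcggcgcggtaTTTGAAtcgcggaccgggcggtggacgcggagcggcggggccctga
Cdk1, chr10:69352863-69353162, minus strand: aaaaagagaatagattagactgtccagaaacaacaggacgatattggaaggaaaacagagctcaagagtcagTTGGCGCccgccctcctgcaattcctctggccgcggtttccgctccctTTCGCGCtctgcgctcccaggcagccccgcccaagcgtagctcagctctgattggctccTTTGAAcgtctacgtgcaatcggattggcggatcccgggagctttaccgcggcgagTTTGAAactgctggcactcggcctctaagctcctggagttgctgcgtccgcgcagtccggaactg
Counting from 1 at the 5′ end of the window, Cdk1 held TTTGAA at bases 180 and 236 and E2F motifs at 73 and 121. Ccnb2 held TTTGAA at 84 and 255 and no E2F motif of these letters. E2f8 held an E2F motif at 140 and TTTGAA, on the reverse strand, at 231. Ccnb1 held a single reverse-strand E2F motif at 149 and no TTTGAA. The table had 39 promoters of 34 members, of which 10 (25.6%) held TTTGAA and 11 (28.2%) held an E2F motif, against 17.9% and 9.57% of all 32851 promoters. A match describes these letters only. It was not tested whether any factor binds there.

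Values below are normalised reads, that is, reads recovered from the deposited log2 values and divided by the size factor of the library. A change is the FMTg minus Tg difference of the deposited log2 values, given with its standard error (SE) from limma for 5 FMTg and 3 Tg libraries. A gene was tested when its mean in the tissue was at least 1 log2 unit above the lowest value, and called at an adjusted p below 0.05 (Benjamini-Hochberg over all genes tested). Of the 45 members, 42 were tested in pancreas, kidney and heart and 43 in ovary and small intestine. Ccna1, Ccnb3 and Cdk15, with few or no reads, were the ones not tested, except Ccnb3 in ovary and Ccna1 in small intestine.

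Libraries held 7.16 M to 29.0 M reads, the fewest in pancreas. The FMTg libraries numbered 4 and 5 in every tissue came from 6 mice with lower mouse numbers than the rest and stood apart in many genes. Many differences, but not all, are therefore also given without them. Mdm2 RNA, itself raised by p53 and counted over the whole gene, so that it does not show the deletion, was higher in every FMTg library than in any Tg library of its tissue. It rose in kidney from between 918 and 1040 normalised reads to between 3230 and 5696 (3.99-fold, adjusted p = 6.85e-04) and in pancreas 3.01-fold (0.0286), and on the mean effect over the tissues (1.25 ± 0.15, 9.40e-07). Cdkn1a, the check of p53 activation, rose in kidney from 240, 210 and 281 normalised reads in Tg to between 1366 and 3064 in FMTg (8.12-fold, adjusted p = 5.04e-04) and in pancreas 3.41-fold (adjusted p = 0.0337). It was higher in FMTg on average in the other tissues without passing the test there, with Tg and FMTg libraries apart in heart and small intestine and overlapping in ovary. The acinar markers Prss2, Cpa1, Cpb1, Cela2a, Ctrb1, Pnlip, Cel and Clps made up 24.4% to 47.3% of the reads of pancreas libraries, and they also made up 16.4% of the reads of Tg ovary replicate 1, against 0.000780% to 3.41% in the other ovary libraries.

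The members differed strongly among the tissues of mice that keep Mdm2. Of the 42 tested over the 15 Tg libraries, 40 passed the F test of tissue (limma, mouse as a random block), close to the 93.8% of all genes that did. Only Ccnt1 (adjusted p = 0.0527) and Cdk5 (0.325) did not. The small intestine, whose crypt cells divide throughout life, had the highest level of 17 members, and 10 of these were apart from the second tissue. The ovary was highest for 8, kidney and heart for 6 each and pancreas for 5. Kidney was lowest for 15.

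**Figure D1:**
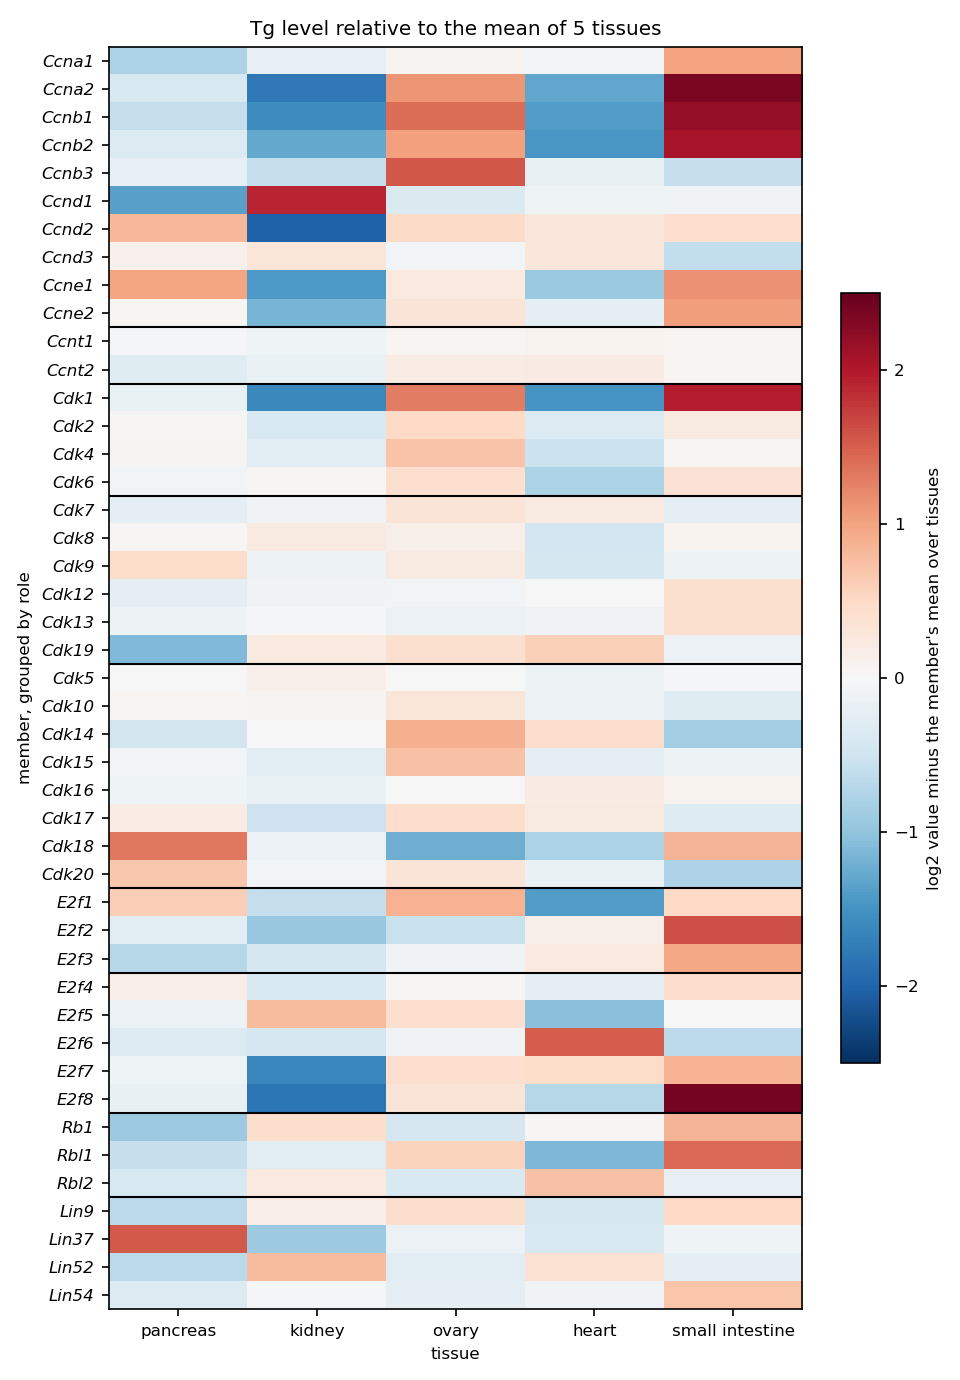
Levels of the 45 members in Tg mice, as the mean deposited log2 value of 3 libraries in each tissue (columns) minus the mean of the member over the 5 tissues (colour, from blue for lower to red for higher, limited to 2.5 either way). The S phase and mitosis genes (Ccna2, Ccnb1, Ccnb2, Cdk1) are reddest in small intestine and ovary, Ccnd1 in kidney, E2f6 in heart and Lin37 in pancreas.

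Ccna2, Ccnb1, Ccnb2, Cdk1 and E2f8 had their highest means in small intestine, then ovary, then pancreas, with kidney and heart lowest. Ccna2, the cyclin A of dividing somatic cells, had 391, 610 and 604 normalised reads in the small intestine of the Tg mice, 134, 358 and 212 in ovary and 19.6, 15.9 and 42.5 in kidney. Small intestine exceeded ovary by 1.25 ± 0.44 (log2, SE, adjusted p = 0.0291) and ovary exceeded pancreas by 1.48 ± 0.44 (0.0126), while pancreas, heart and kidney, in that order, did not differ from the next beyond their spread. The mean in small intestine was 20.6-fold that in kidney. For Cdk1 the ratio of highest to lowest tissue was 14.8, for Ccnb1 19.6, for Ccnb2 15.3 and for E2f8, an atypical repressor E2F, 34.1. For E2f8 the small intestine was also apart from the ovary (2.08 ± 0.44, adjusted p = 0.00137), while for Cdk1, Ccnb1 and Ccnb2 it was not (0.157, 0.144 and 0.0504).

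The D cyclins differed in how their levels were spread over the tissues. Ccnd1 was highest in kidney, at 5598, 3078 and 3044 normalised reads, 3.75-fold the small intestine (adjusted p = 2.47e-04), and lowest in pancreas, at 351, 464 and 350, below the ovary by 1.01 ± 0.33 log2 (adjusted p = 0.0192). Ccnd2 was at 2659, 3886 and 3746 in pancreas, did not differ between neighbours from pancreas through ovary and small intestine to heart, and then dropped to 488, 420 and 486 in kidney (2.31 ± 0.19 below heart, adjusted p = 9.47e-07). Per kilobase of exon, which allows genes to be set side by side, Ccnd1 made up 83.8% of the summed D cyclin level in kidney (829.5 per kb, from 646 to 1189), and Ccnd2 made up 67.0% in pancreas (365, from 283 to 413). Ccnd3 differed by at most 1.88-fold and was lowest in small intestine. It was highest in kidney, like Ccnd1, but did not differ there from heart (adjusted p = 0.905).

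Their kinase partners varied less. Cdk4 was highest in ovary, at 1385, 1554 and 1608 normalised reads, 1.57-fold the pancreas (adjusted p = 2.19e-04). Per kilobase it exceeded Cdk6 in all 5 tissues, at 80.1% to 86.2% of their sum. Cdk4 shares 19.7% of its exon bases with Tspan31 on the opposite strand, and the strand setting of the counting is not given in the sources used here.

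The Rb family was ordered by tissue. Rb1 fell in 4 steps, each beyond the spread, from small intestine (1553, 1861 and 1709 normalised reads) through kidney, heart and ovary to pancreas (488, 503 and 511), with adjusted p between 0.00175 and 0.00512. Rbl1, the p107 gene that is highest in cycling cells, was also highest in small intestine, by 0.85 ± 0.16 log2 over ovary (adjusted p = 6.72e-04). Rbl2, the p130 gene of resting cells, was highest in heart at 1924, 2401 and 2314, above kidney by 0.48 ± 0.09 (adjusted p = 7.13e-04). Per kilobase Rbl2 led the family in pancreas, ovary and heart, and Rb1 led in small intestine. In kidney the means of Rb1 (213.7 per kb) and Rbl2 (208.9) were close. Both genes share exon bases with genes on the opposite strand. For Rbl2 these are 9.2% with Aktip and 11.8% with Gm45464, for Rb1 8.1% with Rcbtb2 and 6.8% with Lpar6.

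Among the E2Fs and MuvB subunits, E2f6, a repressor that acts apart from Rb, was 3.08-fold higher in heart (1122, 1306 and 1181 normalised reads) than in ovary (344, 419 and 410; adjusted p = 5.39e-06). The activators E2f2 and E2f3 were highest in small intestine, above heart by 1.47 ± 0.52 (0.0243) and 0.72 ± 0.21 (0.00890). E2f1 was highest in ovary, where it did not differ from pancreas, the next in order (0.366). Lin37, a MuvB subunit needed for repression by DREAM, was 3.19-fold higher in pancreas (501, 526 and 430) than in small intestine (adjusted p = 9.53e-05), and Lin54, the subunit that contacts the CHR, was highest in small intestine (474, 445 and 456; 0.72 ± 0.11 above kidney, adjusted p = 1.25e-04).

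After loss of Mdm2 most members did not pass the test in any tissue. In pancreas 1 of 42 was called, against 0.446% of all genes, and in 5 the groups did not overlap, 4 with FMTg higher and 1 lower (9.73% of all genes were so apart). Groups apart were found for 4 members in kidney, all lower (8.73% of all genes in either direction), 3 in ovary (5.80%), 2 in heart, both lower (6.92%), and 0 in small intestine (2.88%). No member was called in kidney (0.616% of all genes were), ovary (0%), heart (0.0190%) or small intestine (0%). Limma on the recovered reads with voom weights called no member in any tissue. At an unadjusted p below 0.05 there were 4 members in pancreas, 2 in kidney, 4 in ovary, 2 in heart and 2 in small intestine, that is 9.52%, 4.76%, 9.30%, 4.76% and 4.65% of those tested against 8.42%, 8.32%, 6.36%, 6.33% and 2.41% of all genes. The mean was higher in FMTg for 16, 15, 29, 24 and 25 members in pancreas, kidney, ovary, heart and small intestine, or 38.1%, 35.7%, 67.4%, 57.1% and 58.1%, against 45.4%, 42.5%, 47.1%, 48.6% and 42.3% of all genes. The median change of the members ran from -0.12 in pancreas to 0.20 in ovary, beside medians of all genes from -0.05 to -0.01. Without FMTg replicates 4 and 5 the mean was higher for 23 of 42 members in pancreas and 15 of 42 in kidney. It was higher for 29 of 44 in ovary, 28 of 42 in heart and 22 of 43 in small intestine. The medians were then 0.03, -0.06, 0.10, 0.11 and 0.01, beside 0.06, -0.01, 0.02, 0.01 and 0.01 for all genes. The share of all genes with a higher mean is not given for that fit.

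**Figure D2:**
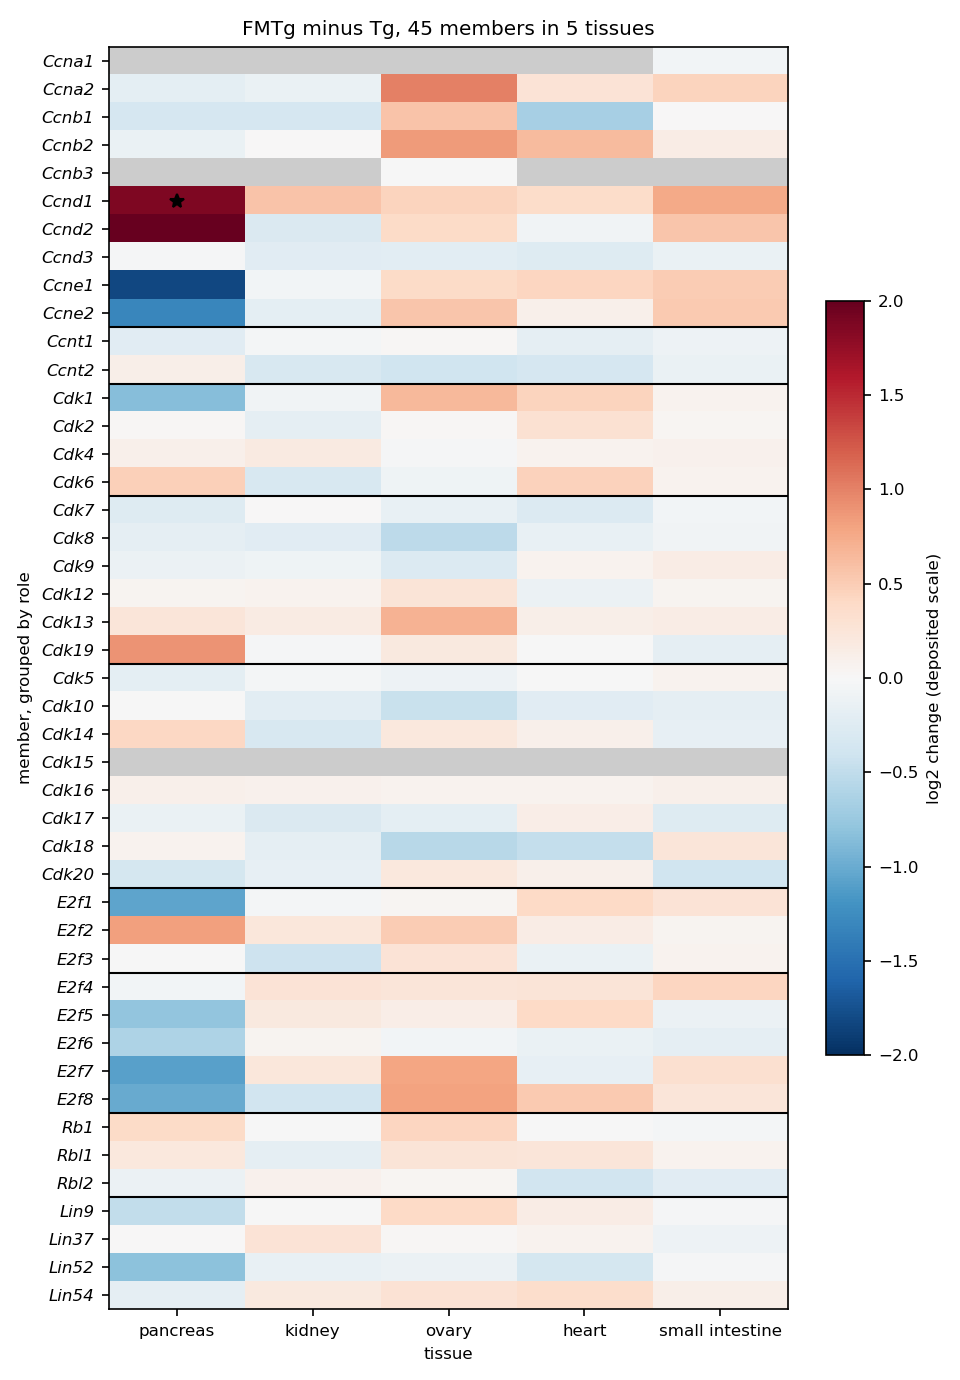
Log2 change, FMTg minus Tg, of the 45 members (rows, grouped by role) in the 5 tissues (columns), on a colour scale limited to 2 either way; grey marks members not tested and the star marks the adjusted p below 0.05. Ccnd1 is higher in FMTg in all 5 columns, and the pancreas column holds the deepest reds (Ccnd1, Ccnd2) and blues (Ccne1, Ccne2, E2f1, E2f7, E2f8).

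Ccnd1 (ENSMUSG00000070348.5, chromosome 7, 144929931 to 144939925, minus strand, GRCm38) encodes cyclin D1, which activates Cdk4 and Cdk6. In pancreas it had 351, 464 and 350 normalised reads in Tg and 1021, 1100, 2861, 1546 and 1157 in FMTg libraries. The lowest FMTg library exceeded the highest Tg library, and replicate 3 was the highest. In that library proximal tubule markers of the kidney, the tissue richest in Ccnd1, made up 0.372% of reads, against 0.000266% to 0.00439% in the other 7 pancreas libraries and 1.25% to 1.84% in kidney libraries. The gene rose by 1.87 ± 0.32, or 3.64-fold (adjusted p = 0.0457). The call ended with voom on the recovered reads (adjusted p = 0.104), without FMTg replicates 4 and 5 (1.92 ± 0.38, 0.104), without a variance trend (0.186), and when any library but FMTg replicate 3 was left out (0.0690 to 0.243), while without replicate 3 the change was 1.61 (0.0138), and it stayed between 1.60 and 2.19 under every alternative run. The exact two-sided permutation p of the 8 libraries was 0.0179, the smallest they can give, and 0.179 adjusted over the 10 exact tests of Ccnd1 and Ccnd2.

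In each other tissue the mean of Ccnd1 was also higher in FMTg libraries, with overlapping groups and no call. In ovary Tg libraries had 805, 679 and 869.9 normalised reads and FMTg libraries 1177, 861, 1333, 884 and 1125, a change of 0.44 ± 0.18 (adjusted p = 0.731). In small intestine they had 1670, 554 and 904 against 1444, 1700, 1493, 1397 and 1997, a change of 0.75 ± 0.31 (0.990), where Tg replicate 1 alone lay within the FMTg range. That library also had more reads of proximal tubule markers (0.283%, against 0.00783% and 0.0545% in the other Tg libraries) and of cardiomyocyte markers (0.455%, against 0.00277% and 0.0621%), and fewer of enterocyte markers (0.894%, against 1.645% and 1.73%) and crypt stem cell markers (0.0189%, against 0.0420% and 0.0374%). FMTg libraries varied too. In the same order they had 0.00502% to 0.131%, 0.00188% to 0.172%, 0.6065% to 2.51% and 0.0144% to 0.0464%. The part of these markers was not tested. Without Tg replicate 1 the Ccnd1 change was 1.16 (0.969). The kidney, where the gene was most abundant, gave 5598, 3078 and 3044 against 6697, 2848, 5474, 6416 and 7976 (0.57 ± 0.33, 0.564), a change of 0.33 ± 0.35 without FMTg replicates 4 and 5. The heart gave 1025, 924 and 847 against 836, 1410, 1454, 1555 and 909 (0.36 ± 0.23, 0.760). Proximal tubule markers made up 0.01225% to 0.0305% of reads in Tg hearts and 0.00145% to 0.167% in FMTg hearts, the most in replicate 3. The part of these markers in the heart change was not tested.

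On the mean effect over the 5 tissues, from a fit of the 40 libraries that treats mouse as a random factor, Ccnd1 rose by 0.79 ± 0.20, or 1.73-fold (adjusted p = 0.0442), the only member called of 42, against 0.729% of all genes, with 5 members (11.9%) at an unadjusted p below 0.05 against 12.1% of all genes. The call remained without FMTg replicates 4 and 5 (0.76 ± 0.18, 0.0271), and ended with voom (0.0704) or without pancreas (0.54, 0.235), ovary (0.0701) or small intestine (0.250). The 5 tissue effects did not pass the F test of a difference (adjusted p = 0.227). Ccnd1 shares 1100 bases, or 23.4%, of its exons with Oraov1 on the opposite strand. Oraov1 itself had 271, 268 and 369 normalised reads in Tg pancreas and 272, 278, 279, 36.96 and 258 in FMTg, with replicate 4 far below the rest.

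**Figure D3:**
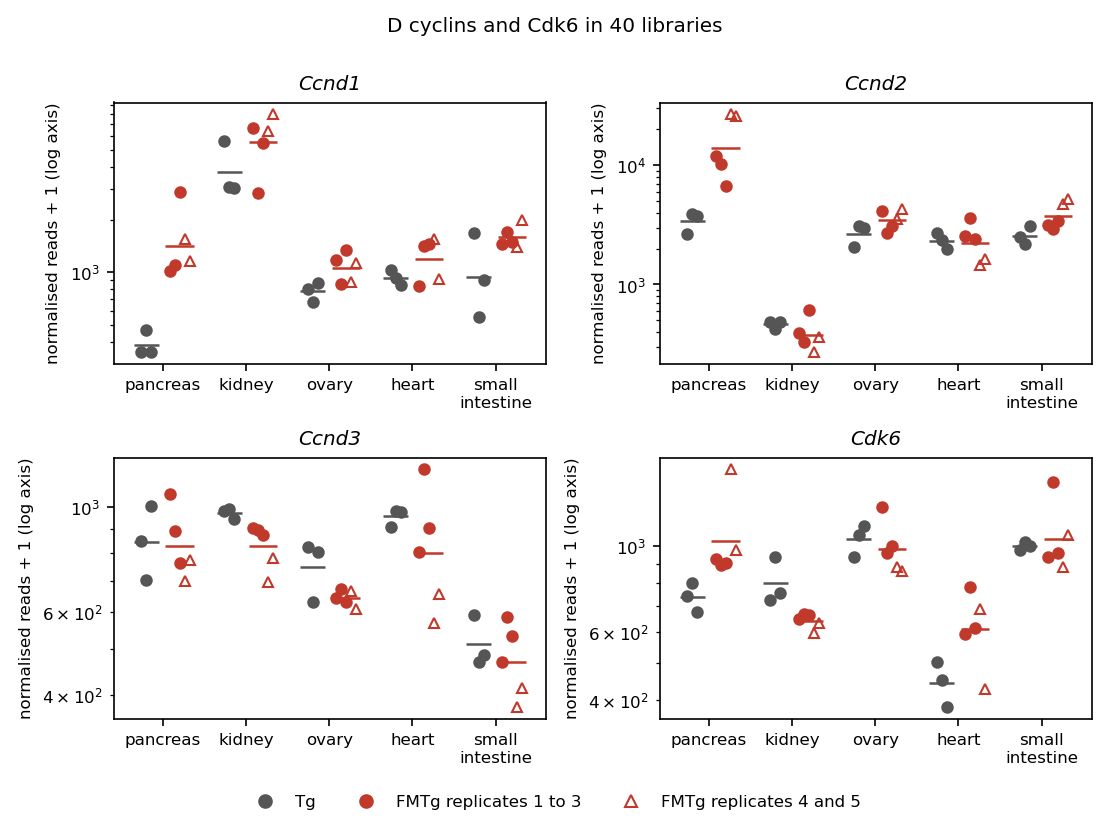
Normalised reads plus 1 (log axis) of Ccnd1, Ccnd2, Ccnd3 and Cdk6 in each of the 40 libraries, by tissue; grey circles are Tg, red circles FMTg replicates 1 to 3, open triangles FMTg replicates 4 and 5, and bars the mean of the log values. In pancreas every FMTg library lies above every Tg library for Ccnd1 (1021 to 2861 against 350 to 464), Ccnd2 and Cdk6, and for Ccnd2 both triangles are highest.

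Ccnd2, the D cyclin most abundant in pancreas, had 2659, 3886 and 3746 normalised reads there in Tg and 11832, 10141, 6634, 26651 and 25733 in FMTg libraries. The groups did not overlap, and replicates 4 and 5 were the highest. Its change of 2.05 ± 0.44, a 4.15-fold difference, did not pass the test (adjusted p = 0.122), and was 1.45 ± 0.25 without replicates 4 and 5 (0.0670). It passed with library weights (1.70, adjusted p = 0.00185), in the single model of all libraries (1.98, 4.70e-04) and without FMTg replicate 3 (2.32, 0.0351). The exact permutation p was 0.0357, and 0.179 adjusted over the 10 tests.

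Outside the pancreas the Ccnd2 changes were 0.56 ± 0.23 in small intestine, 0.38 ± 0.20 in ovary, -0.07 ± 0.29 in heart and -0.29 ± 0.23 in kidney, none called. Without replicates 4 and 5 they were 0.30 ± 0.15, 0.27 ± 0.23, 0.28 ± 0.19 and -0.11 ± 0.21 in the same order. Its F test for a difference between tissues gave an adjusted p of 0.0612, the lowest of the members, in a test that called none of 42 members and 0.192% of all genes, and that had 5 members at an unadjusted p below 0.05 (11.9%, against 8.46% of all genes). The third D cyclin gene, Ccnd3, went from 980, 991 and 943 normalised reads in Tg kidney to 905, 897, 874, 693 and 781 in FMTg (-0.23 ± 0.11, adjusted p = 0.564), all 5 below all 3, with replicates 4 and 5 the lowest, and the change was -0.12 ± 0.06 without them. In pancreas it was -0.03 ± 0.19.

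Markers of other cells also differed between the groups in pancreas. The summed level of 6 erythroid markers was 1192 to 1689 normalised reads in Tg and 3863 to 9103 in FMTg libraries, with 6 of 6 genes higher on average. For 6 endothelial markers it was 2667 to 3017 against 3445 to 4694, again 6 of 6. Islet and macrophage lists also had 6 of 6 genes higher, with overlapping sums, the acinar list 8 of 8, the adipocyte, proximal tubule and enterocyte lists 5 of 5, the fibroblast list 5 of 6, the duct list 4 of 6 and the neutrophil list 0 of 5. These counts compare means of normalised reads. On the log2 values 4 of 5 adipocyte, 3 of 5 proximal tubule and 4 of 5 enterocyte genes were higher. Enterocyte markers, like those of the proximal tubule, were highest in FMTg replicate 3, at 0.0497% of reads against 0.00141% to 0.00437% in the other 7 libraries. Ccnd1 passed without that library, as did Ccnd2. The part of the other lists in the Ccnd1 and Ccnd2 results was not tested, and in whole tissue fewer cells of a type and less RNA per cell cannot be told apart.

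Among the kinases of the G1 phase, Cdk6 was higher in FMTg pancreas and lower in FMTg kidney, without overlap and without a call in either. Pancreas had 741, 799 and 675 normalised reads in Tg and 924, 889, 900.3, 1571 and 977 in FMTg (0.47 ± 0.21, adjusted p = 0.583), with replicate 4 far above the rest, and 0.29 ± 0.11 without replicates 4 and 5. Kidney had 725, 933 and 757 against 648, 666, 662, 597 and 632 (-0.32 ± 0.10, 0.495), the smallest p of the members in that tissue. The heart showed 0.46 ± 0.20 (0.760) with overlapping groups. The F test of a difference between tissues gave Cdk6 an adjusted p of 0.258. The Cdk4 changes were 0.10 ± 0.14 in pancreas, 0.18 ± 0.09 in kidney, -0.03 ± 0.14 in ovary, 0.06 ± 0.13 in heart and 0.09 ± 0.12 in small intestine, none called.

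Of the E cyclins, which activate Cdk2 at the entry to S phase, Ccne1 had few reads. Ccne1 in pancreas had 47.2, 38.7 and 63.1 normalised reads in Tg and 57.2, 32.9, 31.0, 0 and 0 in FMTg libraries. The 2 zeros belonged to replicates 4 and 5, and in the shallower of them, replicate 4, a count of 0 still allows 3 reads, or 18.5 normalised reads. The change was -1.82 ± 1.12 over all libraries (adjusted p = 0.744) and -0.29 ± 0.33 without these replicates. In small intestine Ccne1 had 47.8, 63.0 and 55.2 against 58.7, 79.4, 76.8, 97.4 and 98.8 (0.51 ± 0.24, adjusted p = 0.990), with only FMTg replicate 1 inside the Tg range, and 0.34 ± 0.21 without replicates 4 and 5. Ccne2 had 98.66 to 158 normalised reads in Tg small intestine and 122.5 to 293 in FMTg, with no call. Its change there was 0.19 ± 0.25 without replicates 4 and 5. Ccne2 shares 17.4% of its exon bases with Ints8 on the opposite strand.

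Over all libraries Ccna2, Ccnb1 and Cdk1 showed no common direction over the tissues. Without FMTg replicates 4 and 5 Ccna2 was higher in every tissue. Its changes were then 0.58, 0.11, 0.99, 0.71 and 0.05 in pancreas, kidney, ovary, heart and small intestine. Cdk1 was lower only in kidney (-0.05) and Ccnb1 only in small intestine (-0.02). The mean effects in that fit were 0.49 ± 0.24 for Ccna2, 0.48 ± 0.22 for Cdk1 and 0.39 ± 0.25 for Ccnb1. None was called (adjusted p = 0.401, 0.365 and 0.555). In ovary Ccna2 had 134, 358 and 212 normalised reads in Tg and 623, 301, 447, 284 and 733 in FMTg libraries, a change of 1.01 ± 0.39 (adjusted p = 0.719). Tg replicate 1, the ovary library rich in acinar reads, was the lowest, and without it the change was 0.68. Ccnb1 followed with 67.8, 262 and 104 against 348, 186, 206, 114 and 148 (0.57 ± 0.46, 0.856), and Cdk1 with 95.4, 294 and 189.9 against 427, 299, 292, 155 and 285 (0.65 ± 0.39, 0.844). Without Tg replicate 1 these were 0.17 and 0.23, and without FMTg replicates 4 and 5 both were 0.91, with SEs of 0.51 and 0.41.

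In pancreas FMTg replicate 4 had no reads of Cdk1 or Ccnb1. Cdk1 had 51.3, 69.6 and 60.7 normalised reads in Tg and 94.6, 56.1, 109, 0 and 22.9 in FMTg pancreas, and Ccnb1 had 22.6, 25.8 and 32.7 against 21.7, 27.1, 76.8, 0 and 43.0. Without replicates 4 and 5 the changes were 0.44 ± 0.30 and 0.37 ± 0.46. In small intestine, where they were most abundant, Cdk1 ran from 229 to 335 in Tg and from 266 to 344 in FMTg (0.06 ± 0.17, adjusted p = 0.990) and Ccnb1 from 160 to 287 and from 166 to 249 (0.01 ± 0.22, 0.998). In kidney none of the 3 genes exceeded 42.5 normalised reads in any library.

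In heart 1 library stood above the rest. FMTg replicate 2 had 142 normalised reads of Ccna2, 123 of Cdk1, 58.1 of Ccnb1 and 797 of E2f2, each the highest of the 8 heart libraries. The other FMTg hearts had 15.9 to 53.03 of Ccna2 and 10.7 to 35.6 of Cdk1, against 16.1 to 55.6 and 12.3 to 33.8 in Tg. In the same library cardiomyocyte markers made up 1.43% of reads (2.96% to 4.59% in the other 7), erythroid markers 2.15% (0.136% to 1.35%), neutrophil markers 0.0943% (0.00162% to 0.0354%), macrophage markers 0.114% (0.0238% to 0.0602%) and fibroblast markers 1.04% (0.128% to 0.250%). It also held the most enterocyte markers (0.111%, at most 0.0533% in Tg hearts) and crypt stem cell markers (0.0199%, at most 0.00786% in Tg hearts). The part of all these markers was not tested. Without this library the heart changes were -0.12 for Ccna2 and -0.01 for Cdk1.

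**Figure D4:**
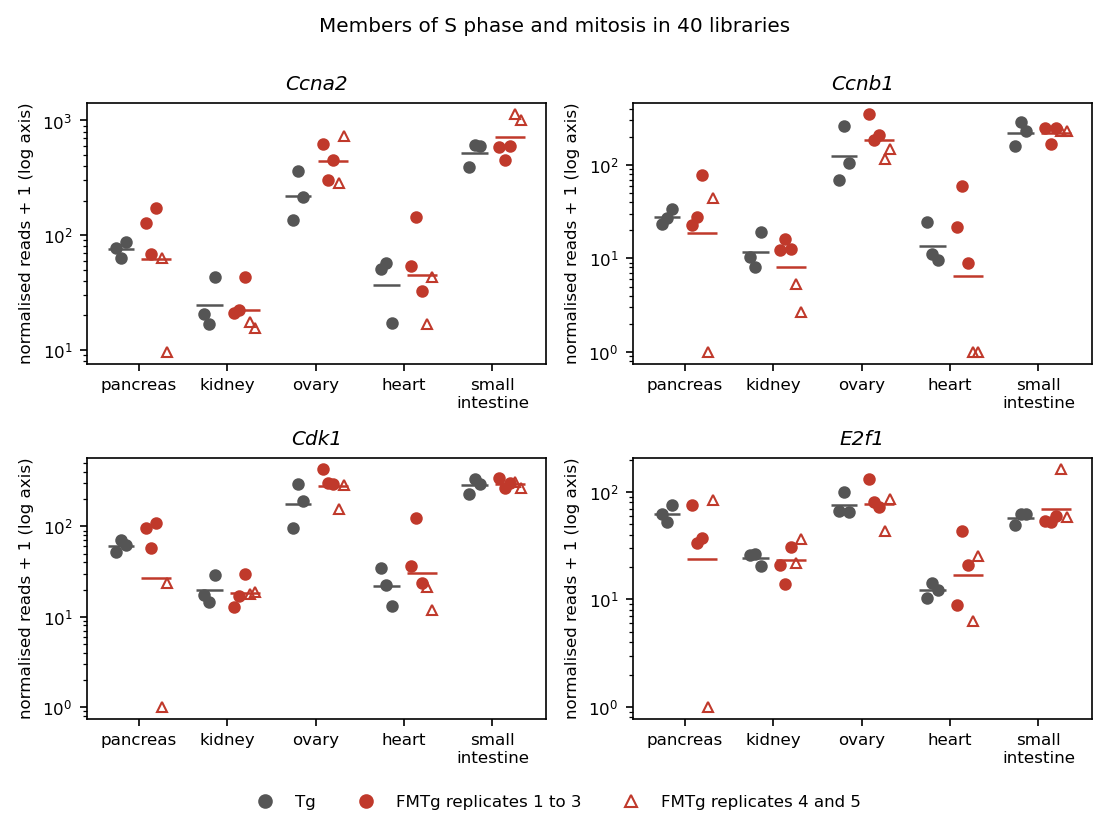
Normalised reads plus 1 (log axis) of Ccna2, Ccnb1, Cdk1 and E2f1 in each of the 40 libraries, by tissue; grey circles are Tg, red circles FMTg replicates 1 to 3, open triangles FMTg replicates 4 and 5, and bars the mean of the log values. Groups overlap in every tissue, levels are highest in small intestine and ovary for Ccna2, Ccnb1 and Cdk1, and the pancreas triangle at 1 is replicate 4, with 0 reads of Ccnb1, Cdk1 and E2f1.

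The transcriptional CDKs act on RNA polymerase II and Mediator. Cdk13, an elongation kinase, had 972, 1367 and 1175 normalised reads in Tg ovary and 1762, 1637, 1553, 2139 and 2407 in FMTg ovary, all 5 above all 3 (0.69 ± 0.18, adjusted p = 0.436). Without replicates 4 and 5 the ovary change was 0.50 ± 0.15 (0.684). On the mean effect Cdk13 was at 0.33 ± 0.10 (0.183) with all libraries and at 0.07 ± 0.06 without those replicates. In pancreas Cdk19, a Mediator kinase, had 199, 191 and 192 in Tg and 321, 385, 384, 609.9 and 232 in FMTg libraries, again apart (0.90 ± 0.31, adjusted p = 0.414; 0.88 ± 0.14 and 0.0537 without replicates 4 and 5). It passed with library weights (0.83, 0.0117) and in the model of all libraries (0.93, 0.0376).

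Cdk8, the paralog of Cdk19 in Mediator, was lower in FMTg kidney, with 1185, 1164 and 1310 against 1062, 1123, 1059, 984 and 963 (-0.23 ± 0.09, adjusted p = 0.564), and in FMTg ovary, with 1120, 1173 and 1152 against 1018, 929, 1016, 640 and 513 (-0.53 ± 0.24, 0.781). The groups were apart in both, and the values without replicates 4 and 5 were -0.17 ± 0.07 and -0.22 ± 0.09. Cdk9, the kinase of the elongation factor P-TEFb, was apart in ovary, at 633, 601 and 559 in Tg against 443 to 537 in FMTg (-0.28 ± 0.13, 0.782). Its cyclin partner Ccnt1 was apart and lower in pancreas (-0.23 ± 0.20, 0.822), where it had 1071, 1075 and 1086 against 1027, 1030.4, 1036, 591 and 999. Replicate 4 alone was far below, and the change was -0.06 ± 0.09 without replicates 4 and 5. Ccnt1 was also apart in heart (-0.19 ± 0.11, 0.760; -0.13 ± 0.08 without them).

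Among the E2Fs no member was called in any tissue. E2f1 in pancreas had 61.6, 51.6 and 74.7 normalised reads in Tg and 74.9, 32.9, 36.0, 0 and 83.1 in FMTg libraries, the 0 again in replicate 4, and its change without replicates 4 and 5 was -0.42 ± 0.35. In small intestine it had 47.8, 61.0 and 61.0 against 52.7, 52.0, 59.1, 161 and 57.8, with replicate 4 far above the rest (0.27 ± 0.38, adjusted p = 0.990; -0.04 ± 0.19 without replicates 4 and 5). E2f7, an atypical repressor that p53 is known to induce, had 4.71, 12.7 and 9.44 in Tg kidney against 7.77, 13.7, 14.3, 9.26 and 9.91 in FMTg (0.23 ± 0.27, 0.709). In ovary it had 30.1, 80.0 and 56.04 against 162, 82.7, 91.8, 37.7 and 150.4 (0.79 ± 0.48, 0.844), and 0.45 without Tg replicate 1. The difference of its paralog E2f8 in ovary was 0.81 ± 0.40 (0.809).

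Rb1, which encodes the retinoblastoma protein, passed the test on the mean effect only without the low-numbered mice. In pancreas Tg libraries had 488, 503 and 511 normalised reads and FMTg libraries 794, 667, 951, 419 and 573, with only replicate 4 below the Tg range (0.38 ± 0.25, adjusted p = 0.765). In ovary they had 600.3, 753 and 775 against 956, 887, 1214, 718 and 1082 (0.44 ± 0.18, 0.768). The mean effect over the tissues was 0.11 ± 0.12 (0.747) with all libraries, and without replicates 4 and 5 Rb1 passed at 0.33 ± 0.07, or an adjusted p of 0.0153. The change without them was 0.66 ± 0.15 in pancreas, 0.51 ± 0.16 in ovary, 0.23 ± 0.16 in heart, 0.18 ± 0.06 in kidney and 0.05 ± 0.16 in small intestine, none called in a tissue alone. FMTg replicate 3 was the highest in pancreas and in ovary. Proximal tubule markers made up 0.372% of reads in that pancreas library (at most 0.00371% in Tg pancreas). Enterocyte markers made up 0.770% in that ovary library (at most 0.0613% in Tg ovary). In Tg mice Rb1 was higher in kidney than in pancreas and higher in small intestine than in ovary. The part of these markers was not tested for Rb1.

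The other pocket proteins were not called in any tissue. The Rbl1 differences ran from -0.19 to 0.25 over the tissues, with Tg and FMTg small intestine at 528 to 639 and 575 to 652 normalised reads. Rbl2 was lower in FMTg heart, at 1668, 1536, 1848, 1359 and 2084 against 1924, 2401 and 2314 (-0.39 ± 0.16, adjusted p = 0.760), with replicate 5 inside the Tg range. Of the 8 other CDKs, Cdk18, a kinase of little known function, was apart and lower in heart, at 402, 244, 428, 383 and 295 against 486, 489.6 and 467 (-0.48 ± 0.20, 0.760). The 4 MuvB genes were not apart in any tissue, and their changes ran from -0.83 to 0.40, the lowest being Lin52 in pancreas, which had no reads in replicate 4. Without FMTg replicates 4 and 5 the Lin52 change in pancreas was 0.33 ± 0.20.

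Several members separated the low-numbered mice, all of them FMTg, from the other libraries of their tissue. Of those named next, Cdk13 in ovary, Cdk8 in kidney and ovary and Ccnd3 in kidney also had FMTg and Tg libraries apart. Replicates 4 and 5 were above the other 6 libraries of their tissue for Cdk13 in all 5 tissues, for E2f4 and Cdk16 in 4, and for Lin54 in 3. They were below for Ccnt2 and Cdk10 in 4 tissues and for Ccnd3 and Cdk8 in 3. The share of members above was 8 of 42 in pancreas, 7 of 42 in kidney, 4 of 43 in ovary, 5 of 42 in heart and 14 of 43 in small intestine, where 12.8%, 20.4%, 15.4%, 14.6% and 16.8% of all genes were above. Those below numbered 10, 12, 6, 10 and 11, against 20.7%, 28.7%, 19.6%, 19.8% and 24.7% of all genes.

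E2f4, the E2F of the DREAM complex, shows the size of it. In small intestine it had 1246 and 1316 normalised reads in replicates 4 and 5, and 417 to 591 in the other 6 libraries. In kidney the values were 441 and 544 against 253 to 288, in ovary 713 and 669.8 against 285 to 398, and in heart 451 and 609 against 275 to 323. Ccnt2, a cyclin partner of Cdk9, went the other way, with 850 and 689 against 1160 to 1351 in kidney and 732 and 897 against 1375 to 1862 in ovary. What sets these mice apart is not given in the labels.

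**Figure D5:**
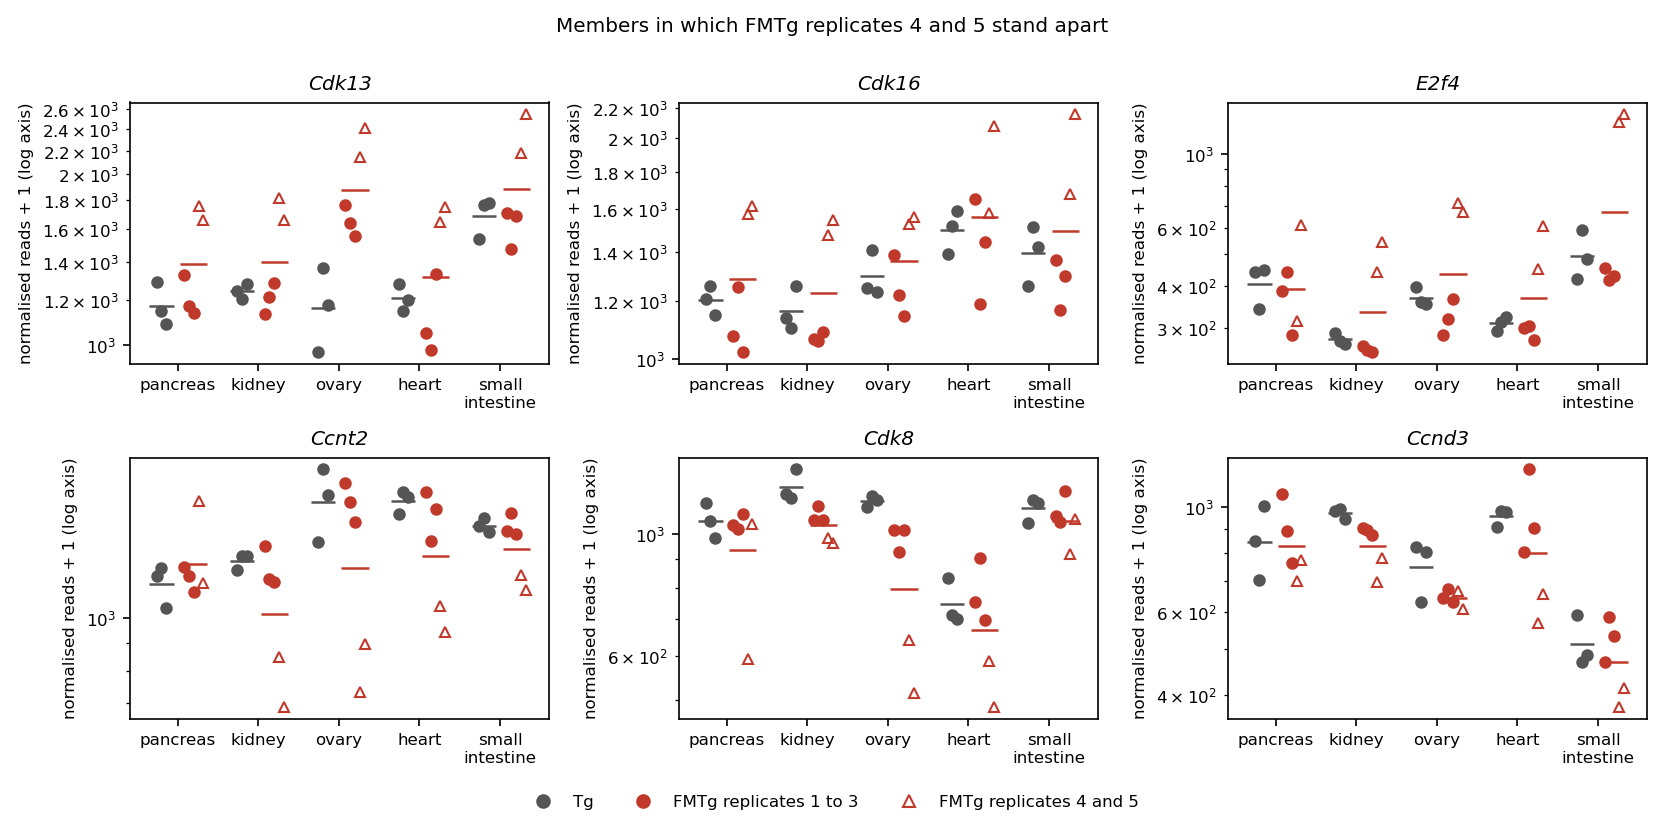
Normalised reads plus 1 (log axis) of Cdk13, Cdk16, E2f4, Ccnt2, Cdk8 and Ccnd3 in each of the 40 libraries, by tissue; grey circles are Tg, red circles FMTg replicates 1 to 3, open triangles FMTg replicates 4 and 5, and bars the mean of the log values. For Cdk13 both triangles lie above the other 6 libraries in all 5 tissues, and for E2f4 in 4; for Ccnt2 both lie below in 4.

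Partners and targets of the members were counted in the same fits. Beside their counts at an unadjusted p below 0.05 stand 8.42%, 8.32%, 6.36%, 6.33% and 2.41% of all genes. These shares are for pancreas, kidney, ovary, heart and small intestine. Of 7 CDK inhibitor genes, 6 were tested in each tissue, and Cdkn1a was the only one called, in pancreas and kidney. Cdkn1c, which encodes p57, had a mean effect of 0.83 ± 0.28 over the tissues (adjusted p = 0.236). Of 22 partners and regulators (among them Tfdp1, Foxm1, Mybl2, Cdc25a and Wee1) none was called in any tissue, with 0, 0, 1, 1 and 1 at an unadjusted p below 0.05 in pancreas, kidney, ovary, heart and small intestine, and with medians from -0.15 in pancreas to 0.17 in ovary. The largest of them by p was Larp7, which holds P-TEFb inactive, at 1.16 ± 0.25 in ovary (0.343).

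Of 20 E2F targets of the G1/S transition none was called in any tissue, and 1, 1, 4, 0 and 0 had an unadjusted p below 0.05. Their median was -0.63 in pancreas, 0.04 in kidney, 0.44 in ovary, 0.18 in heart and 0.21 in small intestine. The pancreas medians of this list and the next include FMTg replicates 4 and 5, which had no reads for 6020 and 4087 genes. The other pancreas libraries had none for 1559 to 2618 genes. Medians without these replicates are not given here. Rrm2, a subunit of ribonucleotide reductase, had the smallest p in pancreas (1.42 ± 0.36, adjusted p = 0.217) and kidney (0.54 ± 0.18, 0.518). Of 20 G2/M genes none was called either, with 0, 3, 11, 0 and 0 at that unadjusted p, and with medians of -0.72, -0.02, 0.82, 0.30 and 0.18 in the same order. In ovary all 20 had a higher mean in FMTg, led by Mki67, the proliferation marker, at 2.31 ± 0.49 (0.326), beside 47.1% of all genes with a higher mean. Mki67 had 203, 992 and 274 normalised reads in Tg and 2827, 1502, 1770, 1262 and 2714 in FMTg ovary, and the lowest was Tg replicate 1, the library rich in acinar reads. In the same ovaries 5 luteal markers summed to 0.118% to 0.290% of reads in Tg and 0.0333% to 0.102% in FMTg libraries. The 5 adipocyte markers summed to 1022 to 1864 normalised reads in Tg and 2027 to 31190 in FMTg ovary, with 5 of 5 genes higher. Enterocyte markers reached 0.770% of reads in FMTg ovary and 0.0613% in Tg ovary. The part of these 3 lists was not tested.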

How the data were processed

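RNA of 40 tissue libraries was sequenced. Per the submitters' processing notes, reads were aligned with STAR 2.6.0b to GRCm38 and normalised with DESeq2. The counter, annotation and strand setting are not given in the sources used here. The authors deposited log2 values on a variance-stabilised scale for 18024 genes, with a lowest value of 1.65 where a gene had no reads. Reads were recovered by inverting that scale, and 100.0% of the values came out whole within 0.01. The tests used the log2 values, since they are not counts.

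Each tissue was fitted with limma 3.58.1 (R 4.3.3, trended variance) over genes with a mean at least 1 above the lowest value. The mean effect and the difference between tissues came from 1 model of the 40 libraries, in which mouse was a random factor (correlation 0.249). Limma with voom weights on the recovered reads was an alternative. Others were library weights, no variance trend, other filters, a replicate block, and leaving out libraries, tissues or mice. With 3 against 5 libraries there are 56 divisions, so an exact two-sided permutation p cannot go below 0.0179. The labels call the libraries biological replicates. Levels between genes are per kilobase of merged GENCODE M21 exons, which also gave the positions. Promoters came from the RefSeq table. The fits were also run on simulated data. Those libraries were drawn without a mouse correlation and without a shift of FMTg replicates 4 and 5, so that run covers neither.

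Values by library are given for members called in a tissue or on the mean effect, for the 3 with the smallest p in each tissue, and for Ccna2, Ccnb1, Cdk1, Ccnd1, Ccnd2, Ccne1, E2f1, E2f7, Rb1 and Rbl1. Cdk9, Ccnd3, E2f4, Ccnt2 and the members named for their level in Tg mice were picked with their values in view. The members and lists were chosen with earlier results of these data known, and the duct, islet, endothelial, fibroblast and macrophage markers after the data were seen. Limits on a count of 0 allow 3 reads and cover counting error only.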

Additional observations from a re-analysis of the deposited data

Results flagged for a closer look

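In 6 of the 85 groups of 5 FMTg libraries tested (7.06%, where chance alone gives about 1 in 20), 1 library lay further from the rest than Dixon's critical value of 0.71 allows. Of these 6, 3 were FMTg pancreas replicate 4, the shallowest library with 7.16 M reads. It had the highest Cdk6 of the 5, at 1571 normalised reads with 977 next. It had the lowest Cdk8, at 591 with 1023 next, and the lowest E2f1, at 0 with 32.9 next. In FMTg ovary replicate 5 had the lowest Ccne1, at 15.5 with 40.6 next. In FMTg small intestine replicate 2 had the lowest Ccnb1, at 166 with 228 next, and replicate 4 the highest E2f1, at 161 with 59.1 next.

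Cdk6 was higher in all 5 FMTg pancreas libraries than in any Tg library (a change of 0.47) and lower in all 5 FMTg kidney libraries (-0.32). The F test of a difference among the 5 tissues gave an adjusted p of 0.258.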

How the results depend on the processing

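The number of members called in pancreas, 1 as reported, was 0 with voom, without a variance trend, with the replicate block, without the low-numbered mice and in mice with an ovary library, 4 with library weights (Ccnd1, Ccnd2, Cdk19, Rb1) and 3 in 1 model of all libraries (Ccnd1, Ccnd2, Cdk19). Leaving out each library gave 0 to 2. The ovary count, 0 as reported, was 1 in the model of all libraries (Cdk13). On the mean effect, 1 as reported, 2 were called without the mouse block (Ccnd1, Ccnd2) and 2 without the low-numbered mice (Ccnd1, Rb1), and 0 with voom or without pancreas, ovary or small intestine. The difference between tissues, 0 as reported, had 1 call without small intestine (Ccnd2, adjusted p = 0.0416). Leaving out 1 Tg mouse left 35 to 40 members called between Tg tissues, and leaving out single libraries left 0 in kidney, ovary, heart and small intestine. The cause of these shifts was not tested. Of 1580 values of 17 members under alternatives, 1545 kept their side of the threshold within the spread, 16 lost a call, 9 gained one and 10 moved. No called value changed sign, and 179 values with no call in either fit had the other sign.

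Replicate numbers belong to different mice, and same-numbered libraries correlated between -0.587 and 0.592, with the best match in 4 of 15 cases, so the numbers do not pair the samples. With the replicate block 0 members were called in every tissue, and Ccnd1 in pancreas had an adjusted p of 0.231 (log2 change 1.92). In the shallowest pancreas library a count of 0 allows 18.5 normalised reads, so low E2Fs, E cyclins and Cdk1 are poorly measured there.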
